A study of Mus musculus with 4 samples.

Results

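Chromatin accessibility was examined at 10 genes that encode thin-filament and Z-disc proteins of the sarcomere, out of 21938 protein-coding genes in the annotation. The members were the actin genes Actc1, Acta1 and Acta2, the troponin genes Tnnt2, Tnni1, Tnni3 and Tnnc1, the tropomyosin gene Tpm1, the alpha-actinin gene Actn2 and Csrp3. They were taken by name, and each was scored for differential ATAC-seq peaks in the gene body or within 10 kb of any annotated transcription start site (TSS). ATAC-seq marks open chromatin by the insertion of sequencing adapters by the Tn5 transposase. Hearts were collected at embryonic day 9.5 (E9.5) from wild-type (WT) embryos and from embryos without SMYD1, a histone methyltransferase of striated muscle (Smyd1-KO). Smyd1-KO is a germline null, so SMYD1 was missing from every cell of the embryo and not from cardiomyocytes alone. Each genotype had 2 libraries, each library held 4 pooled whole hearts, and 40000 viable cells of each pool were used. In whole hearts, more cells of a type and more open chromatin per cell cannot be told apart.

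The sarcomere is the contractile unit of striated muscle. Its thin filament is a polymer of actin along which tropomyosin lies, and the troponin complex of T, I and C subunits moves tropomyosin off the myosin-binding sites of actin when calcium binds to troponin C. The thin filaments are anchored at the Z-disc, where alpha-actinin crosslinks the actin filaments of adjoining sarcomeres. Embryonic cardiomyocytes express cardiac, skeletal and smooth muscle forms of actin together and use the slow skeletal form of troponin I before the cardiac form takes over.

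The data are lists of peaks that differed at least 2-fold between the genotypes, one of 25745 peaks higher in Smyd1-KO hearts, called gained peaks here, and one of 106 peaks higher in WT hearts. Each peak is 149 bp wide and carries 1 deposited value, called its score, for the genotype in which it was higher. No library is named for it. There is thus no replicate error, and no difference between the genotypes could be tested against the spread between pools. The depth of the libraries is unknown from the lists. The scores of gained peaks had a median of 180.5 with quartiles of 81 and 410. Scores were written in steps of 0.5 for gained peaks and 0.1 for WT-enriched peaks, so they were compared within the gained list only. A gene without a listed peak may still have open chromatin, because peaks that did not differ 2-fold are in neither list.

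At Actc1, Acta1, Tnnt2, Tnnc1, Actn2 and Csrp3, a gained peak covered most of the 150 bases before the first base of the RefSeq transcript. At Tnni3 a gained peak covered the last 23 of these bases, and at Tpm1 a peak reached into them from farther upstream. Sequences of this stretch are shown for 5 of the first 6 genes, and for Tnni1, in which no gained peak lay there. They are RefSeq sequences of GRCm38.p6, written 5′ to 3′ in the direction of transcription. Bases that lie in an annotated exon were left off the 3′ end. Capitals mark the matches to 5 of the 7 fixed motifs searched, the other 2 having none here, on either strand. They are the CArG box of serum response factor, TEAD (GGAATG), T-box (AGGTGT), E-box (CAGCTG) and TATA box (TATAAA). The stretch of Actc1 lies at chr2:114052888-114053025 on the minus strand, Acta1 at chr8:123894776-123894925 on the minus strand, Tnnt2 at chr1:135836184-135836333 on the plus strand, Tnnc1 at chr14:31208162-31208311 on the plus strand, Csrp3 at chr7:48848052-48848201 on the minus strand and Tnni1 at chr1:135799271-135799401 on the plus strand.
Actc1: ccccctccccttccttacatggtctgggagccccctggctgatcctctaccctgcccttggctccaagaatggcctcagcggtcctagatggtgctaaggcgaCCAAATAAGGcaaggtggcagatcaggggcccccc
Acta1: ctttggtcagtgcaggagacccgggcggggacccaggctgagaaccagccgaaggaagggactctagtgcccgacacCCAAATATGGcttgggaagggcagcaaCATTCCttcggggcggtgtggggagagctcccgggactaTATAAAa
Tnnt2: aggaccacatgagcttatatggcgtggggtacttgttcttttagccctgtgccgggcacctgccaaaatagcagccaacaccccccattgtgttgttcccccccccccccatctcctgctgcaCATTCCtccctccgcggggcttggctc
Tnnc1: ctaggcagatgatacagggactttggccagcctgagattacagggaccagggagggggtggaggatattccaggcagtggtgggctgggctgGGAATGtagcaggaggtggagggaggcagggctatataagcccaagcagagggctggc
Csrp3: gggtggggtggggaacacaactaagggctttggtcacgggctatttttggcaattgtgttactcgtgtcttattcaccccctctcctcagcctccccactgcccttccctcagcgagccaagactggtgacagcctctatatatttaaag
Tnni1: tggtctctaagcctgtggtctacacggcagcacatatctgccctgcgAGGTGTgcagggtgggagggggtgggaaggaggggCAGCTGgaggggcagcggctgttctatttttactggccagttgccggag
Of the 150 bases before the RefSeq start, gained peaks covered 128 in Actc1, 146 in Acta1, 128 in Tnnt2, 119 in Tnnc1, 120 in Actn2 and 104 in Csrp3, but 0 in Tnni1. In the printed sequences a CArG box is present in Actc1 and Acta1, and a TEAD string in Acta1, Tnnt2 and Tnnc1.

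The first comparison addressed how many of the genes carried a gained peak and where. A gained peak lay in the gene body or within 10 kb of a TSS in 9 of the 10 genes, against 62.6% of all protein-coding genes. The exception was Acta2. Within 10 kb of a TSS alone the count was also 9 of 10, against 59.6% of protein-coding genes. It stayed at 9 of 10 within 3 kb (background 51.2%) and within 1 kb (background 48.1%), so that each gene with any gained peak had one close to an annotated start. A gained peak covered a TSS in 5 genes, Actc1, Tnni3, Tpm1, Actn2 and Csrp3, against 27.8% of protein-coding genes. Where a peak was counted only if no other gene had a nearer TSS, 9 of 10 genes kept one, against 50.9%. In the RefSeq promoter window, from 250 bases before to 50 bases after the start, the count was 8 of 10, without Acta2 and Tnni1, against 39.0% of 17491 protein-coding RefSeq genes. None of the 10 genes had a WT-enriched peak in the body or within 10 kb of a TSS, where 0.155% of protein-coding genes had one. With a share that low, 0 of 10 is near the background. These shares are a description and carry no test.

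**Figure D1:**
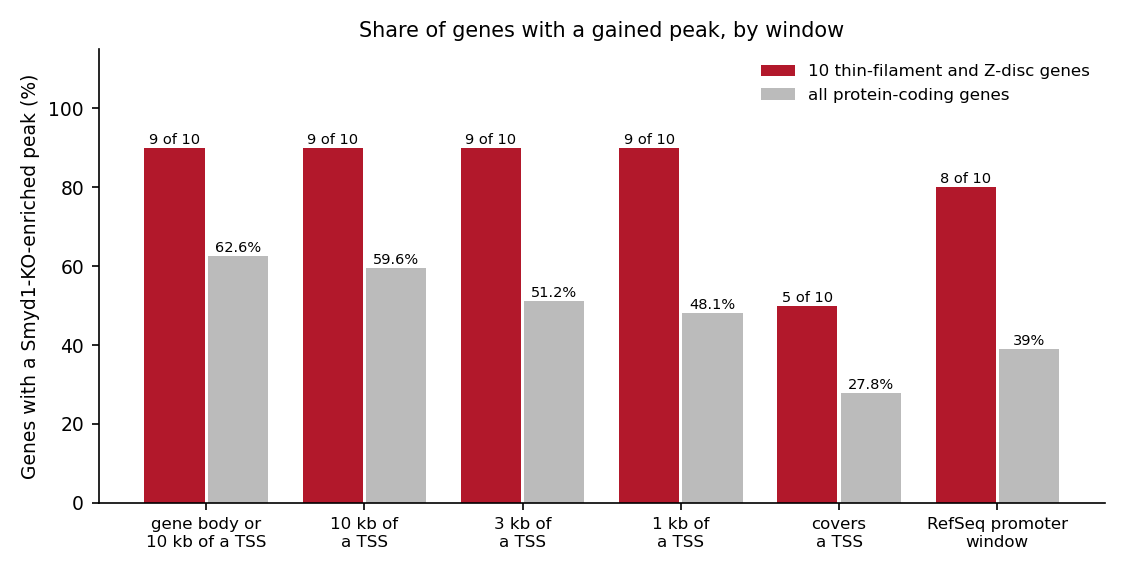
Share of genes with a Smyd1-KO-enriched peak (y axis, percent) in 6 windows (x axis) for the 10 thin-filament and Z-disc genes (red) and for all protein-coding genes (grey); the last grey bar covers RefSeq genes only. The red bars stand at 9 of 10 in the first 4 windows while the grey bars fall from 62.6% to 48.1%.

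The genes held 24 gained peaks in all, each assigned to 1 of them. The number per gene was 4 in Actc1, Tnni3, Tnnc1 and Actn2, 3 in Tpm1, 2 in Tnni1, 1 in Acta1, Tnnt2 and Csrp3 and 0 in Acta2. The median was 2.5 peaks a gene, against 1 over protein-coding genes, and 4 or more peaks were found in 4 of 10 genes against 5.02%. The median gene length was 15204 bp against 17425 bp. Per 100 kb of window the genes had 7.05 gained peaks, against 1.85 over protein-coding genes. Each of these is a total of peaks over a total of window lengths, in which the longest genes weigh most. The medians of length do not correct for that, and the part of long genes in this difference was not tested. Part of the members' peaks belongs to neighbours. The nearest TSS was the gene's own for 17 peaks and that of another gene for 7, which lay at Actc1, Tnni3 and Tnnc1. Counting only peaks nearest to an own TSS, 1 member, Actn2, had 4 or more, against 1.97% of protein-coding genes. At the edge of the window, the farthest peaks of Tnni3 and Tnnc1 lay 9610 and 9379 bp from a TSS, and the closest peak left out lay 13285 bp from a TSS of Tnni1.

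**Figure D2:**
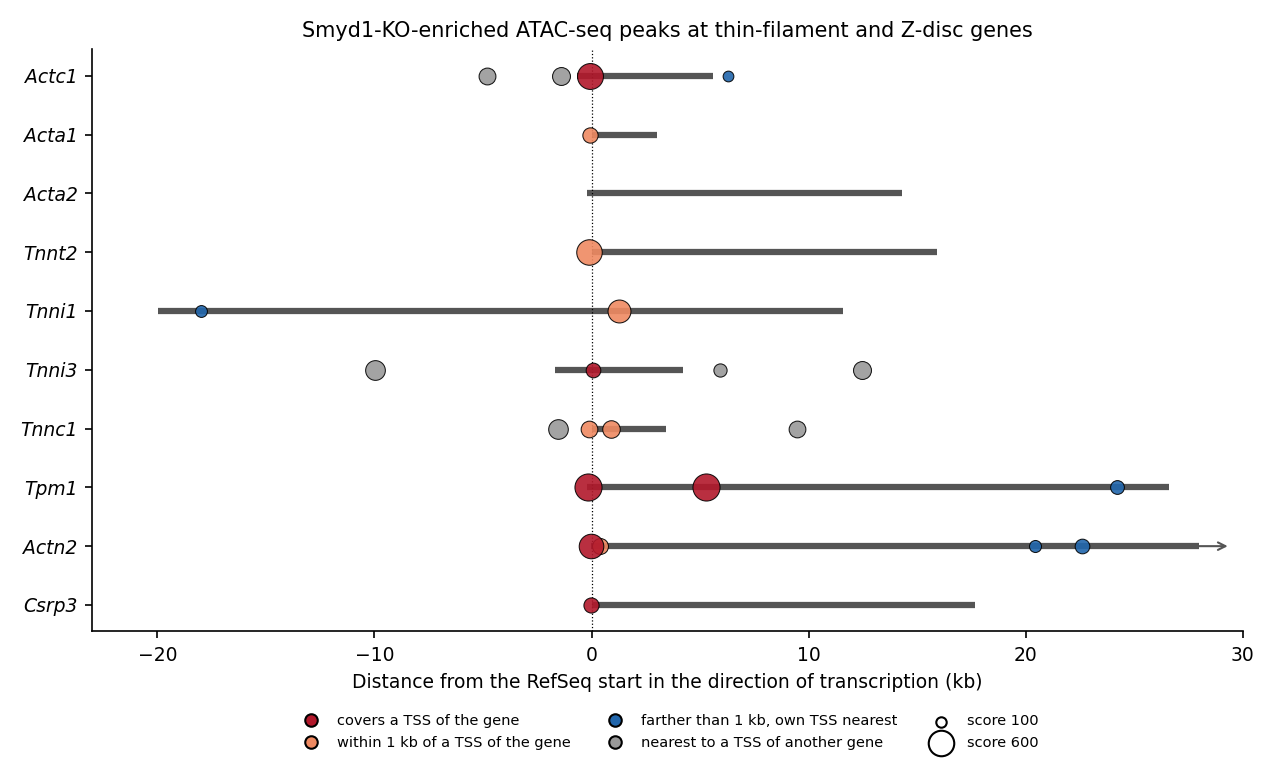
Gained peaks at the 10 genes (rows), placed by the distance of their centre from the RefSeq start in kb (x axis, positive in the direction of transcription); the grey bar is the annotated gene, circle area is proportional to the score, and Actn2 runs on past the right edge. Red and orange circles, which cover or lie within 1 kb of an own TSS that is also the nearest TSS, gather at the start except for the internal Tpm1 peak, while the grey circles at Actc1, Tnni3 and Tnnc1 are nearest to a TSS of another gene.

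Actc1 encodes cardiac alpha-actin, the main actin of the heart's thin filament. The gene (ENSMUSG00000068614.7) lies at chr2:114047282-114053548 on the minus strand. Its strongest gained peak, at chr2:114052855-114053003, covered a TSS in the annotated 5′ UTR and had a score of 619.5, higher than 87.5% of the list. A peak with a score of 296 lay 673 bp upstream of the other, more upstream Actc1 TSS and 1346 bp from the RefSeq start. It covered a TSS of the neighbouring noncoding gene C130080G10Rik. The third, with a score of 261, lay 4046 bp upstream of the same upstream TSS and 4719 bp from the RefSeq start. It was also nearest to C130080G10Rik, at 1281 bp. The fourth lay 6226 bp downstream of the TSS under the strongest peak, past the end of the gene. Its score of 106 was the lowest of all 24 peaks. At Actc1 the highest score was thus at the start, and the lowest was past the end of the gene.

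Acta1 encodes skeletal alpha-actin, which the embryonic heart also expresses. The gene (ENSMUSG00000031972.5) lies at chr8:123891769-123894751 on the minus strand. It had a single gained peak, at chr8:123894773-123894921, 22 bp upstream of the TSS, with a score of 215.5, higher than 54.9% of the list. The peak holds the CArG box, the TEAD string and the TATA box of the Acta1 sequence above. It covered the RefSeq start but not the TSS of the annotation used to place the peaks. Its score was lower than that of the strongest peak of Actc1.

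Acta2 encodes smooth muscle alpha-actin, which cardiomyocytes express transiently in the early embryo. The gene (ENSMUSG00000035783.9) lies at chr19:34241090-34255590 on the minus strand. No gained peak was listed in it or within 10 kb of its TSSs. The closest gained peak was 78806 bp away and had a score of 39, and the closest WT-enriched peak was 92980 bp away. Of the 3 actin members, Acta2 was thus the one with no listed difference.

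Tnnt2 encodes cardiac troponin T, the subunit that ties the troponin complex to tropomyosin. The gene (ENSMUSG00000026414.13) lies at chr1:135836354-135852260 on the plus strand, and its single gained peak was at chr1:135836163-135836311, 43 bp upstream of a TSS. The score of 599.5 was higher than 86.6% of the list. No peak was listed in the rest of the gene, which has 10 annotated TSSs.

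Troponin I, the subunit that holds actin and myosin apart in the absence of calcium, is encoded by Tnni1 in slow skeletal muscle and the embryonic heart and by Tnni3 in the maturing heart. Tnni1 (ENSMUSG00000026418.16) lies at chr1:135779434-135810989 on the plus strand and had 2 gained peaks, both in the gene body. The stronger, at chr1:135800628-135800776, had a score of 484, higher than 80.4% of the list, and lay in an intron 795 bp downstream of a TSS and 1207 bp downstream of the RefSeq start. The weaker had a score of 129.5 and lay in a noncoding exon, 1563 bp upstream of a TSS of longer annotated transcripts. At Tnni1 no peak covered a start, in contrast to Tnni3.

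Tnni3 (ENSMUSG00000035458.15) lies at chr7:4518305-4524229 on the minus strand, and 4 gained peaks were assigned to it. A peak at chr7:4522403-4522551 covered a TSS of Tnni3 in the 5′ UTR and had a score of 197.5, higher than 52.5% of the list. The other 3 were nearest to TSSs of other genes. A peak with a score of 358.5 covered a TSS of Dnaaf3, 8219 bp upstream of Tnni3. A peak with a score of 297 lay 68 bp from a TSS of Tnnt1, which encodes slow skeletal troponin T and lies next to Tnni3, and one with a score of 161 lay 144 bp from another TSS of Tnnt1. Tnni3 thus had 1 gained peak nearest to its own start, with a score close to the list median, and 3 nearest to its neighbours.

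Tnnc1 encodes the calcium-binding troponin C shared by the heart and slow skeletal muscle. The gene (ENSMUSG00000091898.8) lies at chr14:31208312-31211729 on the plus strand and had 4 gained peaks with scores between 256 and 355. A peak at chr14:31208132-31208280, 32 bp upstream of the TSS, had a score of 256, and one in an intron 822 bp downstream of a TSS had a score of 283.5. The strongest, with a score of 355, covered a TSS of Nisch 1489 bp upstream of Tnnc1. The fourth, with a score of 258, lay 9379 bp downstream and 1 bp from a TSS of Sema3g. The 4 scores at Tnnc1 were close together, from 59.9% to 70.2% of the list below them.

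Tpm1 encodes alpha-tropomyosin, made as long isoforms from a distal promoter and as short isoforms from an internal one. The gene (ENSMUSG00000032366.15) lies at chr9:67022590-67049406 on the minus strand and has 21 annotated TSSs. Its 2 strongest gained peaks had the same score of 676.5, the highest of the 24 peaks and higher than 89.7% of the list. One, at chr9:67049304-67049452, covered the most upstream TSS, and the other, at chr9:67043855-67044003, covered 2 internal TSSs. The third, with a score of 175, lay in an intron 7724 bp from a TSS. Tpm1 was the only one of the 10 genes with 2 separate gained peaks that each covered a TSS, and single peaks also covered 3 annotated TSSs of Actn2 and 4 of Tnni3.

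Actn2 encodes the alpha-actinin of cardiac and oxidative skeletal muscle Z-discs. The gene (ENSMUSG00000052374.16) lies at chr13:12269426-12340760 on the minus strand and, at 71335 bp, is the longest of the 10. All 4 of its gained peaks were nearest to its own TSSs. The strongest, at chr13:12340704-12340852, covered a TSS and had a score of 556, higher than 84.6% of the list. A peak with a score of 234.5 lay 329 bp downstream in a coding exon. The other 2, with scores of 133 and 198, were intronic, 20349 and 22505 bp inside the gene from its TSS. Scores at Actn2 were highest at the start and lower inside the gene.

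Csrp3 encodes muscle LIM protein, which binds alpha-actinin at the Z-disc. The gene (ENSMUSG00000030470.15) lies at chr7:48830398-48848033 on the minus strand. Its single gained peak, at chr7:48848007-48848155, covered a TSS in the 5′ UTR and had a score of 212, higher than 54.4% of the list. Another gained peak, with a score of 122, was 4974 bp past the annotated gene and 14136 bp from a TSS, outside the window used here.

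The next comparison set the scores against those of the whole gained list. The 24 peaks had a median score of 259.5 and a range from 106 to 676.5. Above the list median lay 19 of them, above the upper quartile 6, and below the lower quartile 0. The 6 above the upper quartile were the 2 at starts of Tpm1 and those at the starts of Actc1, Tnnt2 and Actn2 and in Tnni1. Peaks near a TSS had higher scores throughout the list, so each class of position was set against its own kind. The 6 peaks on an own TSS had a median score of 588, against 430 for the 6527 peaks of the list on a TSS of any gene, with quartiles of 286.5 and 621.5. Those of Tnni3 (197.5) and Csrp3 (212) were below the lower of these quartiles. The 13 peaks within 1 kb of an own TSS had a median of 296, below the 402.5 of 12239 peaks within 1 kb of any TSS. The 4 peaks beyond 3 kb of any TSS, at Actc1, Tpm1 and Actn2, had scores from 106 to 198 and a median of 154, against 87 for 11759 such peaks, whose upper quartile was 144. The strongest peak within 3 kb of a TSS had a median score of 484 over the 9 genes and 460.5 over protein-coding genes with one, with quartiles of 292 and 693. For Tnnc1 this strongest peak was the one on the TSS of Nisch. The members' medians were thus above those of the list on a TSS and below them within 1 kb, and none of these differences was tested.

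**Figure D3:**
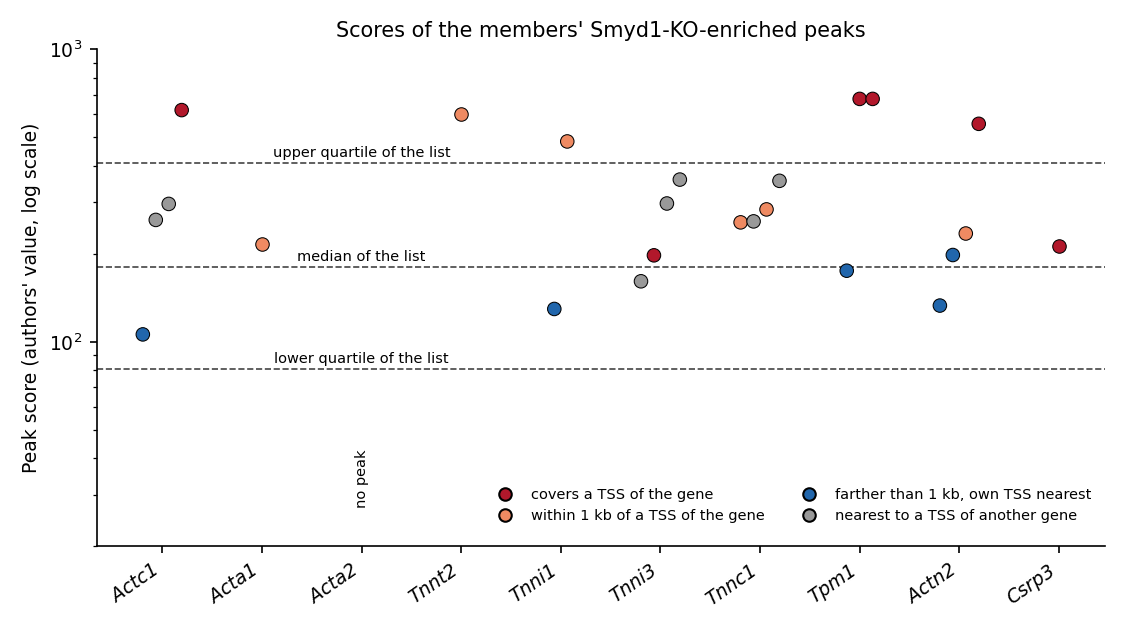
Score of each gained peak (y axis, log scale) for the 10 genes (x axis), coloured by its place as in the map of the peaks; dashed lines are the quartiles and the median of all 25745 gained peaks. The peaks of Actc1, Tnnt2, Tnni1, Tpm1 and Actn2 above the upper line lie on or within 1 kb of a start, and no peak lies below the lower quartile.

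Of the 24 peaks, 6 covered an own TSS, 8 lay upstream of the nearest own TSS and 10 downstream of it. By annotation 8 lay in a 5′ UTR, 9 in an intron, 2 in a coding exon, 2 in a noncoding exon and 3 between genes. The peaks were similar to the list in GC content and lower in CpG content near starts. The median GC content was 58.4%, from 39.6% to 80.5%, against 57.7% in the list. The ratio of observed to expected CpG had a median of 0.319 against 0.416. Within 1 kb of an own TSS the ratio was 0.27 against 0.781 for gained peaks within 1 kb of any TSS, while GC content was 61.1% against 65.8%. The exceptions among the members' own start peaks were Tpm1, with ratios of 0.919 and 0.791, and Actn2, with 0.868. At the starts of Actc1, Tnni3 and Csrp3 the ratios were 0.266, 0.27 and 0.319, and at Tnnt2 and just upstream of Tnnc1 they were 0.183 and 0. At the start of Acta1 the ratio was 0.518. These differences are descriptions of 24 peaks and were not tested. None of the 114 words of 36 bases in each of the 24 peaks recurred elsewhere in the 21 assembled chromosomes, so no stretch of that length in the actin and troponin peaks is shared with a paralog.

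Motif strings in the peaks were then counted beside the whole list. A CArG box was present in 2 of the 24 peaks, those at the starts of Actc1 and Acta1, and in 0.897% of gained peaks. The MEF2 string was present in 0 of 24 and in 1.76% of the list. The string of the GATA factors, searched as AGATAA, was present in 4 of 24 against 8.87%, TEAD in 2 against 10.6%, T-box in 3 against 5.5%, E-box in 4 against 12.2% and TATA box in 1 against 2.69%. In the 150 bases before the RefSeq start, a CArG box was present in 2 of 10 genes, Actc1 and Acta1, against 0.916% of 32851 RefSeq promoters. This background counts promoters and not genes, and is a larger set than the 17491 protein-coding RefSeq genes used above. TEAD was present in 5, Acta1, Acta2, Tnnt2, Tnnc1 and Tpm1, against 7.59%. T-box and E-box were present in Tnni1 only, against 6.86% and 8.39%, TATA box in Acta1 only, against 7.57%, and GATA and MEF2 in none, against 5.65% and 1.67%. No matches to different motifs overlapped in these promoters. In Acta2 and Tpm1 all 150 of these bases lie in annotated exons, so their TEAD strings may lie in transcribed sequence. Acta2 has no gained peak, in Tpm1 the TEAD string lies outside the peak, and in Tnnt2 the peak ends inside it. A match gives the presence of the letters, not of a bound factor, and an absent match refers to these letters in these windows only.

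**Figure D4:**
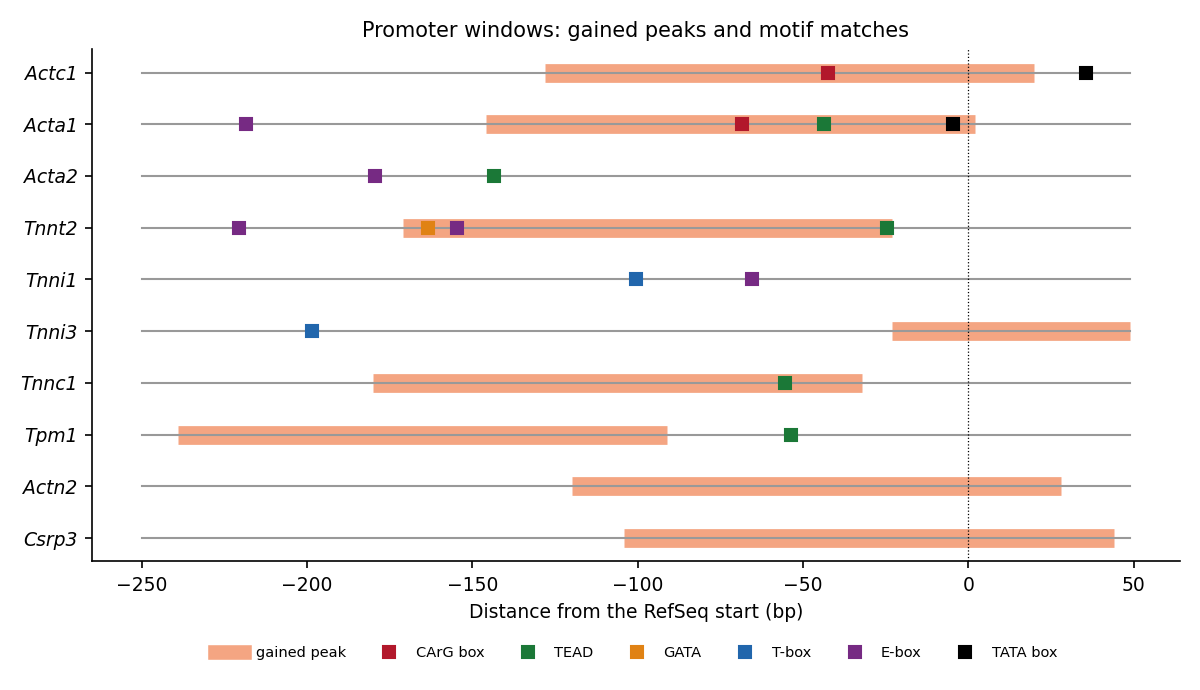
RefSeq promoter windows of the 10 genes (rows), with distance from the start in bp (x axis), gained peaks as broad bars and motif matches as squares; bars are drawn to the edge of the window, and MEF2 had no match. A gained peak reaches into the window of 8 genes, and the CArG boxes of Actc1 and Acta1 lie 47 to 38 and 73 to 64 bases before the start, inside the peaks.

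Paralogs of the members were compared as the most similar genes, and some of them are not restricted to muscle. Of 15 paralogs, 14 had a gained peak in the window, 11 within 3 kb of a TSS and 6 on a TSS, against 62.6%, 51.2% and 27.8% of protein-coding genes, and none had a WT-enriched peak. In 11 of them at least 1 of the peaks was nearest to the gene's own TSS, against 50.9%. Among the actins, Actb, the cytoplasmic beta-actin gene, had a peak with a score of 392.5 on its TSS. Actg1, for cytoplasmic gamma-actin, had 1 with a score of 867 that lay 1730 bp away and nearer to another gene. Actg2, for enteric smooth muscle gamma-actin, had none, as for Acta2. The 4 troponin genes of skeletal muscle had no peak on a TSS. The highest scores within 3 kb were 297 at Tnnt1, 204 at Tnni2 and 106 at Tnnt3, and Tnnc2 had none within 3 kb. Tnnt2 and Tnni1, at 599.5 and 484, were above each of these, and Tnni3, at 197.5, was not. Tnnc1 stood at 355 by the peak on the TSS of Nisch and at 283.5, below Tnnt1, by its own highest peak. Tropomyosin genes had peaks with scores of 595.5 (Tpm2), 793 (Tpm3) and 416.5 (Tpm4) on or 9 bp from a TSS, on both sides of the 676.5 of Tpm1. Of the alpha-actinins, Actn1 and Actn4, which are not restricted to muscle, had highest scores within 3 kb of 897.5, at 25 bp from a TSS, and 523.5, on a TSS. Another peak of Actn1 covered a TSS with a score of 496.5. Actn3, of fast skeletal muscle, had no gained peak within 3 kb and 1 at 8284 bp. Csrp2 had a peak on a TSS with a score of 569, and Csrp1 had none within 3 kb and 2 farther away, with scores of 184.5 at 4903 bp and 188.5 at 11962 bp. Gained peaks were therefore also listed at paralogs that are not specific to striated muscle, and the difference between members and paralogs was not tested.

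**Figure D5:**
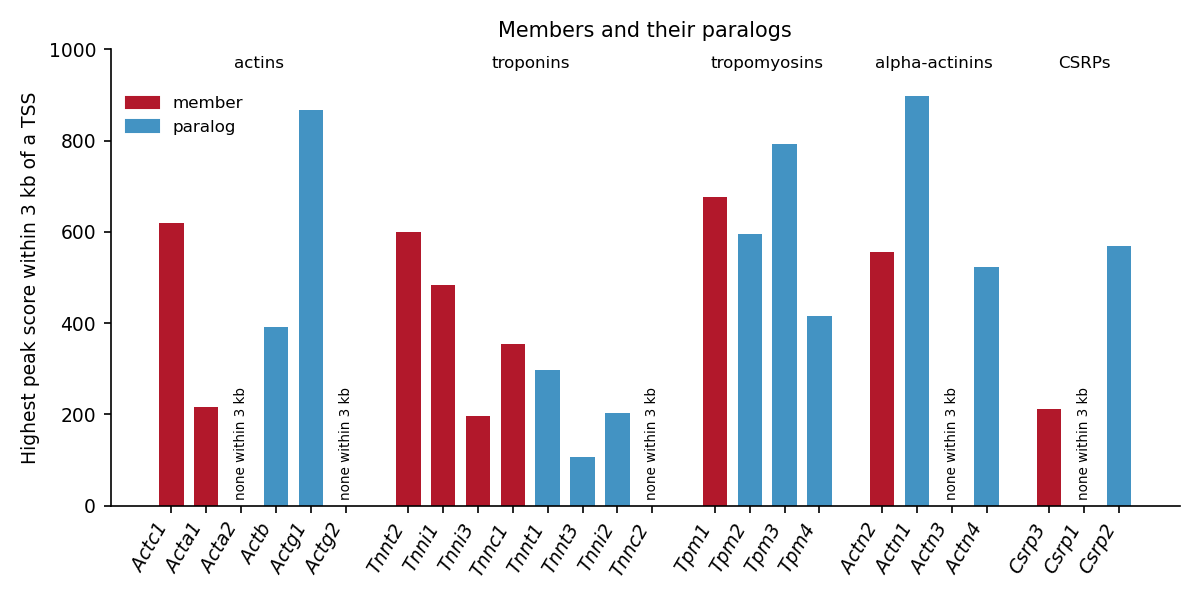
Highest score of a gained peak within 3 kb of a TSS (y axis) for the 10 members (red) and 15 paralogs (blue), by protein family (x axis). Both colours reach high values in the tropomyosins and alpha-actinins, and Acta2, Actg2, Tnnc2, Actn3 and Csrp1 have no gained peak within 3 kb.

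Other sarcomere genes were placed in the same way, beside the shares of 62.6% in the window, 51.2% within 3 kb and 27.8% on a TSS over protein-coding genes. Of 14 other thin-filament genes, 11 had a gained peak in the window, 6 within 3 kb and 4 on a TSS. Those with none were Tmod3, Lmod3 and Nrap. The highest scores within 3 kb were 881.5 at Capzb and 544.5 at Capza2, which encode subunits of the protein that caps actin filaments, and 544 at Cfl2, the muscle cofilin gene. Of 23 other Z-disc genes, 20 had a gained peak, 15 within 3 kb and 10 on a TSS. Myoz2, Myot and Pdlim3 had none, and the highest scores within 3 kb were 787 at Pdlim5, 641.5 at Bag3 and 634 at Pdlim7. Of 10 thick-filament genes, 9 had a gained peak, all within 3 kb, with 6 on a TSS. Myom2 had none, and the highest scores within 3 kb were 700.5 at Myl4, 680.5 at Myom1 and 464 at Myh6. A gained peak nearest to the gene's own TSS was found in 9 of the other thin-filament, 17 of the other Z-disc and 9 of the thick-filament genes. The share over protein-coding genes was 50.9%. No gene of these lists had a WT-enriched peak in the window. Differences between these lists, the members and the background were not tested.

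Markers of the cell types that an embryonic heart can hold were placed in the same way, beside the shares of 62.6% in the window and 51.2% within 3 kb over protein-coding genes. With 4 markers a cell type, these counts were not tested against those shares. The cardiomyocyte markers Nkx2-5, Myh6, Myl7 and Ryr2 had a gained peak in the window in 4 of 4, and 3 of 4 within 3 kb. Myh6 and Myl7 also stand among the thick-filament genes. Of the smooth muscle markers, which bear on Acta2, Cnn1 and Tagln had none, Smtn had 4, of which 2 lay within 3 kb with a highest score of 761, and Myh11 had 1 with a score of 318 at 25680 bp. Of the skeletal muscle markers, Myod1, Myf5 and Myog had none and Ckm had 2 within 3 kb with a highest score of 192.5. Endothelial and endocardial markers had a gained peak in 3 of 4, with Cdh5 without one, and 1 within 3 kb at Tek (79.5). Epicardial and fibroblast markers had one in 3 of 4, all within 3 kb, with 593 at Pdgfra, 293 at Col1a1 and 221.5 at Wt1 and none at Tcf21. The erythroid markers Hba-a1, Hbb-bt and Alas2 had none. The lists do not give the level of open chromatin at these markers in either genotype, and the part of cell composition in the gained peaks of the thin-filament and Z-disc genes was not tested.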

How the data were processed

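ATAC-seq was performed on E9.5 hearts of WT and Smyd1-KO embryos, 2 libraries of 4 pooled hearts per genotype. Reads were aligned by the authors to mm10 with BWA-MEM, peaks were called with HOMER v4.10.3 and annotated with ChIPseeker v1.20.0, and a 2-fold difference was the cut-off. The deposited value of each peak is a signal, 1 for the combined libraries of a genotype. Its scaling, how libraries were combined, and the treatment of duplicates, reads with several positions and the Tn5 offset are not given in the sources used here, and each could change which peaks are listed.

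Peaks were placed on GENCODE release M21. Distance was measured from the nearer edge of a peak and was 0 where it covered the TSS. A peak could count for several genes. Sequence and RefSeq starts were from GRCm38.p6, and all 10 members matched a RefSeq promoter. All 25851 peaks lay inside its chromosomes. Motifs were searched on both strands as fixed strings. Placement and motif search were tested on simulated data. Python 3.11.15, pandas 2.3.3, numpy 2.4.6, pysam 0.24.0, samtools 1.23.1 and matplotlib 3.10.9 were used.

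The members and the lists of paralogs, other thin-filament, Z-disc and thick-filament genes and cell type markers were chosen with earlier results of these data known. All members and paralogs were named. From the other sarcomere lists, the genes without a gained peak in the window and the 3 with the highest score within 3 kb were named. Neighbouring genes and single marker genes were named after their values were seen. A further erythroid marker is not reported here. Shares and medians are descriptions and no test was made, since neither list holds replicate values. Alternatives were the set of TSSs, the window, assignment to the nearest TSS, a stricter score, the peak centre, recurring 36-base words and merging over gaps of 1 kb, with the RefSeq promoter window added after seeing the data.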

Additional observations from a re-analysis of the deposited data

How the results depend on the processing

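The count of 9 genes with a gained peak held for TSSs of protein-coding transcripts, windows of 10, 3 and 1 kb around a TSS, the nearest TSS only, scores at or above the list median, the peak centre, peaks with at most 10% recurring 36-base words and merging over 1 kb. It was 5 with scores at or above the upper quartile and 8 in the RefSeq promoter window, which was chosen after seeing the data. The number of gained peaks, 24, was 15 within 3 kb, 13 within 1 kb and 6 with scores at or above the upper quartile, each of which admits fewer peaks, and 17 to 24 otherwise. The median score, 259.5, was 289.75 within 3 kb of any TSS, 154 beyond it and 234.5 for peaks nearest to an own TSS. The share of genes with a gained peak, 62.6%, was 39.7% over all annotated genes and 59.6%, 51.2% and 48.1% of protein-coding genes within 10, 3 and 1 kb. Counts within 3 kb (9) and on a TSS (5) did not change under the alternatives run for them.

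No paired analysis was possible because each list holds 1 value per peak for a genotype and none per library. Leaving out a replicate was not run for the same reason. The lists cannot show open chromatin that differed less than 2-fold, the spread between pools, or the depth of each library, so a peak missing at Acta2 is not evidence of closed or unchanged chromatin there. Scores rank peaks within the gained list only.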
